A study of Mus musculus with 24 samples.

Results

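The immunity-related GTPases (IRGs) of the mouse were examined in 4 organs of Trex1-KO mice, with and without SN-011: heart, stomach, muscle and tongue. The 10 genes were Irgm1, Irgm2, Igtp (also called Irgm3), Iigp1 (Irga6), Tgtp1, Tgtp2, Ifi47 (Irgd), Gm12250 (Irgb10), Gm4951 and F830016B08Rik. They were chosen by their symbols in GENCODE release M21, and all 10 were among the 54532 genes of the count files. All 10 also passed the filter on low counts in each of the 4 tissues.

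IRGs are large GTPases that cells make after exposure to interferon. They act on the membranes around intracellular pathogens such as Toxoplasma gondii and Chlamydia trachomatis. In the family's usual scheme, the GMS class (Irgm1, Irgm2 and Igtp) sits on the cell's own membranes and holds the other class, the GKS effectors, in an inactive state there. The effectors load onto vacuole membranes with the help of the autophagy conjugation proteins and break the vacuole open. TREX1 is a DNA exonuclease whose loss lets DNA build up and activates cGAS-STING signalling and interferon, and SN-011 is a small molecule antagonist of STING.

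The class of a member can be read from its GTP-binding loop, so that stretch of coding sequence is printed for the members on chromosome 11, with the codon that separates the classes in capitals. It was found in the longest open reading frame of a GENCODE transcript, and it spans 24 bases, 5′ to 3′. The codon reads ATG (methionine) in the 3 GMS members and AAG (lysine) in the GKS members.
Irgm1, Irgm2 and Igtp: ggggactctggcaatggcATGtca
Tgtp1 and Tgtp2: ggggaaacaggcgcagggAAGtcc
Ifi47: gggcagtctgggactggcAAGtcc
Gm12250: ggggagacaggggcagggAAGtcc

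All 24 bases were the same in Irgm1, Irgm2 and Igtp, although their whole reading frames were 69.4 to 74.6% identical to each other. Tgtp1 and Tgtp2 also shared the stretch, and their reading frames of 1245 bases differed at 4 positions, an identity of 99.7%. Single reads therefore often could not separate these genes, and the share of read pairs that could not was not computed. Of the windows of 150 bases in Tgtp1 transcripts, 64.9% also occurred in another gene, nearly all in Tgtp2, and 68.4% of the Tgtp2 windows occurred in Tgtp1. Counts kept unique pairs, so the values of Tgtp1 and Tgtp2 rest on the parts that differ and are uncertain as a split between both genes. The share was at most 0.7% for each of the other 8 members.

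Because the 10 genes moved together between samples, their promoters are shown where they hold an interferon motif. RefSeq promoters (GRCm38.p6, 250 bases before to 50 after the start) were given for 7 members. They were searched on both strands for the interferon-stimulated response element, spelled GAAANNGAAA, and for the gamma-activated sequence, spelled TTCNNNGAA, which can overlap. The first was in 6 of 7 member promoters, against 3.44% of 32851 promoters, the second in 5 of 7, against 8.3%, and both in 5 of 7, against 0.454%. Each window of 30 bases below is in the direction of its gene, with the matched letters in capitals.
Irgm1, chr11:48871428-48871457, minus strand: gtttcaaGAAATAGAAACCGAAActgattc
Tgtp1, chr11:48992310-48992339, minus strand: gccatTTCCAGGAAtcGAAACTGAAAccta
Tgtp2, chr11:49064269-49064298, minus strand: gccatTTCCAGGAAtcGAAACCGAAAccta
Gm12250, chr11:58183779-58183808, plus strand: atgTTCTCAGAAatctgcTTTCAGTTTCat
Igtp, chr11:58199506-58199535, plus strand: gccatTTCTAGGAActGAAACTGAAAgctg
Irgm2, chr11:58214897-58214926, plus strand: gccatTTCCAGGAActGAAACTGAAAgctg

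In Irgm1 the capitals are 2 overlapping response elements. In Tgtp1, Tgtp2, Igtp and Irgm2, a gamma-activated sequence came first and a response element followed it closely, in nearly the same 30 letters. Within its window, Gm12250 had both motifs in the same order, with the response element on the other strand. Its promoter held a further response element upstream of that window. The promoter given for Ifi47 held neither motif, which says only that these letters are not in that window. The starts are those of RefSeq and not always those of the GENCODE models used for the counts. The window of Gm12250 lies upstream of its counted model, and those of Irgm1, Tgtp1 and Irgm2 lie inside their GENCODE genes. A motif match is a description of the letters and not of a bound factor.

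Mice were of the C57BL/6J background, young per the study's methods, and every mouse carried the Trex1 knockout, the controls included. There was no wild type group among the samples analysed here, so the levels below are those of a Trex1-KO animal with and without the antagonist. Per the labels, SN-011 was given at 5 mg/kg, 3 times a week over 4 weeks, and the controls were untreated. The methods of the study describe another schedule and a vehicle for the controls, and groups were formed by tissue and treatment alone. Each of the 8 groups had 3 samples, and the 24 libraries held 14253416 to 18443329 counts, at which 3 counts equal 0.163 to 0.210 CPM (counts scaled to a common library size). That floor reflects counting error alone. Whether the 4 tissues came from the same mice is not given in the sources used here. The main fits over several tissues took their samples as independent, and p-values measure the spread between these samples.

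Before the results, 3 properties of the libraries have to be stated. In every tissue, control 1 had 3060 to 13811 counts of Xist and at most 3 of Ddx3y, whereas each other sample had at most 20 of Xist and at least 825 of Ddx3y. No SN-011 sample had the pattern of control 1, so the sex that these genes mark was not balanced between control and SN-011. The muscle library SN-011 2 detected 11546 genes, where any other library detected 19798 or more. Trex1 had 0 counts in all 24 libraries, but it shares exons with Atrip, so this does not check the genotype. The labelled tissues matched their markers. Summed heart markers were 22114 to 39086 CPM in heart samples and at most 243 elsewhere, gastric markers 5639 to 95269 and at most 1512, skeletal muscle markers 118804 to 174683 and at most 27044 (tongue), and tongue epithelium markers 12682 to 55664 and at most 1446. Marker levels also differed by treatment. In the stomach, tongue epithelium markers had 106 to 232 CPM in controls and 438 to 1446 CPM after SN-011. Gastric markers had 28375 to 95269 and 5639 to 34823 CPM there, with overlap. Heart markers in the heart had 22114 to 31561 and 31662 to 39086 CPM. Muscle markers in the muscle had 118804 to 133489 and 144190 to 174683 CPM. The part of such differences in the IRG values was not tested.

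Without SN-011, the IRGs were most abundant in the heart. Levels between genes are compared here as TPM, counts divided by the length of all annotated exons and scaled to a common sum. Igtp, a GMS regulator, led in each tissue, with 1202 ± 146 TPM (SD, n = 3) in the heart, 486 ± 173 in the tongue, 382 ± 26.7 in the muscle and 250 ± 141 in the stomach. Irgm1, another regulator that is also tied to autophagy, had 367 ± 70.5 TPM in the heart, 131 ± 33.8 in the tongue, 79.8 ± 25.7 in the stomach and 60.3 ± 3.74 in the muscle. Iigp1, the best studied effector, reached 351 ± 31.2 TPM in the heart, 139 ± 13.7 in the muscle, 126 ± 56.8 in the tongue and 51.5 ± 34.2 in the stomach. At the low end, Tgtp1 had 43.6 ± 11.6 TPM in heart and 5.02 ± 3.82 in stomach controls, and F830016B08Rik, a predicted IRG of the same chromosomal cluster as Iigp1, ranged from 78.9 ± 14.6 in the heart to 4.16 ± 3.35 in the stomach.

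**Figure D1:**
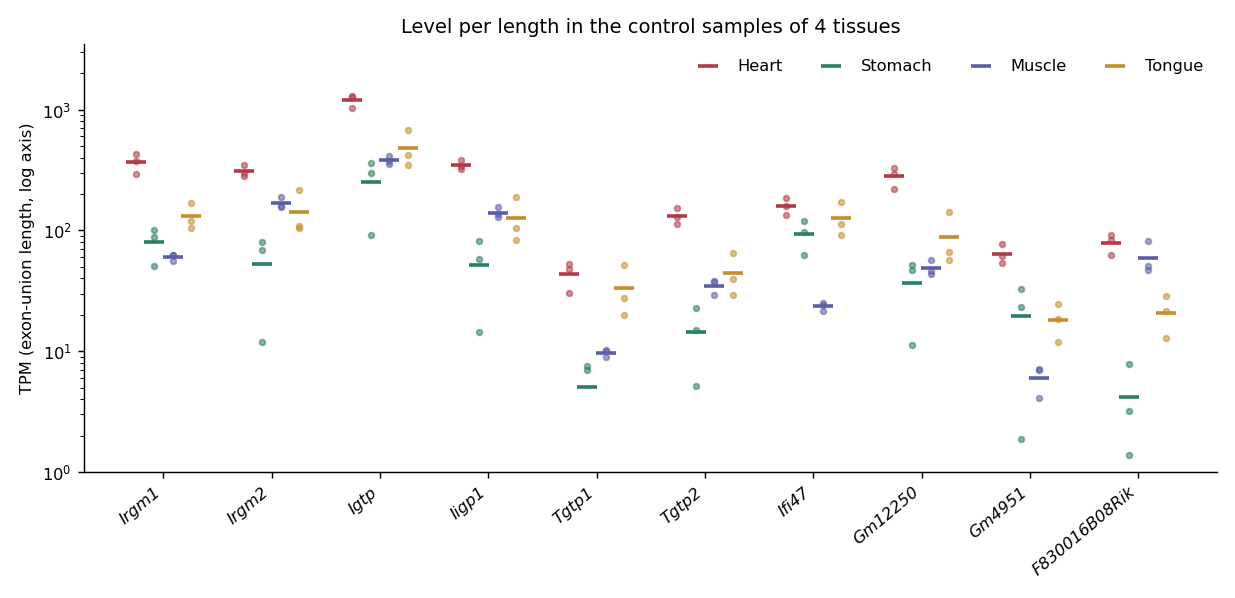
TPM (log axis) of the 10 IRGs in the control samples of heart, stomach, muscle and tongue; points are the 3 samples of a tissue and dashes their mean. Igtp is the highest member in each tissue (1202 TPM in the heart), the heart mean is the highest for all 10 genes, and 1 stomach sample lies far below the other 2 for several genes.

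The tissue differences were tested on counts with TMM scaling, edgeR's quasi-likelihood test over the 12 control samples and Benjamini-Hochberg adjustment over 18301 genes. All 10 members were higher in the heart than in the stomach, against 24.1% of all genes, from Ifi47 (log2 difference 0.61 ± 0.23 SE, adjusted p = 0.0498) to F830016B08Rik (4.23 ± 0.42, adjusted p = 1.5e-05). With 1 sample left out, 8 to 10 members were called, and 7051 to 9012 genes in either direction. The count was 9 with DESeq2's size factors and 8 with total counts only (8576 and 8066 genes in either direction). With the replicate number as a block it was 9 (8643 genes in either direction). Compared with the tongue, 7 of 10 were higher in the heart (15.9% of all genes), Irgm1 by 1.39 on the log2 scale (adjusted p = 9.8e-04). Irgm2, Tgtp1 and Ifi47 were not called there. Compared with the muscle, 5 of 10 were higher in the heart (19.9% of all genes): Irgm1, Tgtp2, Ifi47, Gm12250 and Gm4951. Leaving out tongue control 3 cut the 7 members to 4, with 9.97% of all genes then called higher in the heart.

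Muscle libraries put a large share of their counts on a few genes, and this changes the scale. With total counts only, the median gene was 0.94 (log2) higher in the heart than in the muscle, against 0.08 with TMM, and 8 of 10 members were called higher in the heart, as were 46.1% of all genes. The TPM of the muscle given above has the same property. Irgm2 illustrates it: 310 ± 34.2 TPM in the heart and 168 ± 17.8 in the muscle, yet a TMM-scaled log2 difference of 0.03 ± 0.43 (adjusted p = 0.979).

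The stomach was the lowest tissue for most of the family. Against the muscle, 8 of 10 members differed (56.7% of all genes did), 7 of them lower in the stomach and Ifi47 higher, by 1.28 on the log2 scale (adjusted p = 7.2e-04). Against the tongue, 8 of 10 were lower in the stomach (22.5% of all genes), a count that dropped to 3 without tongue control 2 (18.8% of all genes). Ifi47 and Gm4951 did not pass, at −0.36 and −0.03. Muscle and tongue differed at 2 of 10 members (43.3% of all genes): F830016B08Rik was higher in the muscle by 2.30 and Ifi47 higher in the tongue by 1.63 on the log2 scale, where the fitted muscle minus tongue value was −1.63.

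Placing Ifi47 beside F830016B08Rik shows that the members do not share 1 tissue order. Ifi47 had 159 ± 25.1 TPM in the heart, 126 ± 41.8 in the tongue, 93.2 ± 28.7 in the stomach and 23.6 ± 1.86 in the muscle. Its heart and tongue levels did not differ beyond their spread (adjusted p = 0.439). For F830016B08Rik the order was heart, muscle (59.6 ± 18.7 TPM), tongue (20.9 ± 7.91) and stomach, and heart and muscle were not separated (log2 difference −0.46, adjusted p = 0.345, and 0.41 with total counts only). Gm12250, the effector Irgb10 that opens bacteria and their vacuoles, had 282 ± 54.7 TPM in the heart and 36.5 ± 22.1 in the stomach. It is annotated in GENCODE as a processed pseudogene of 1274 bases, so its counts and TPM rest on that model alone.

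Next, the SN-011 samples of a tissue were set against its controls (edgeR's quasi-likelihood test, adjusted over all genes tested there). All 40 fitted fold changes, 10 members in 4 tissues, were below 0. Their median log2 value was −0.73 for heart, −1.40 for stomach, −1.53 for muscle and −1.07 for tongue, whereas all genes tested had medians of −0.01, 0.00, −0.08 and −0.01. At an adjusted p under 0.05, 1 of the 40 passed, Iigp1 in the heart. The summed CPM of the 10 genes went from 3631 ± 258 to 2259 ± 504 (62.2% of control) for heart, from 842 ± 252 to 326 ± 79.7 (38.7%) for stomach, from 1126 ± 85.4 to 359 ± 89.0 (31.9%) for muscle and from 1642 ± 622 to 757 ± 77.0 (46.1%) for tongue, with no overlap. These are bulk tissues, so fewer cells that carry these mRNAs and less mRNA per cell cannot be told apart.

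**Figure D2:**
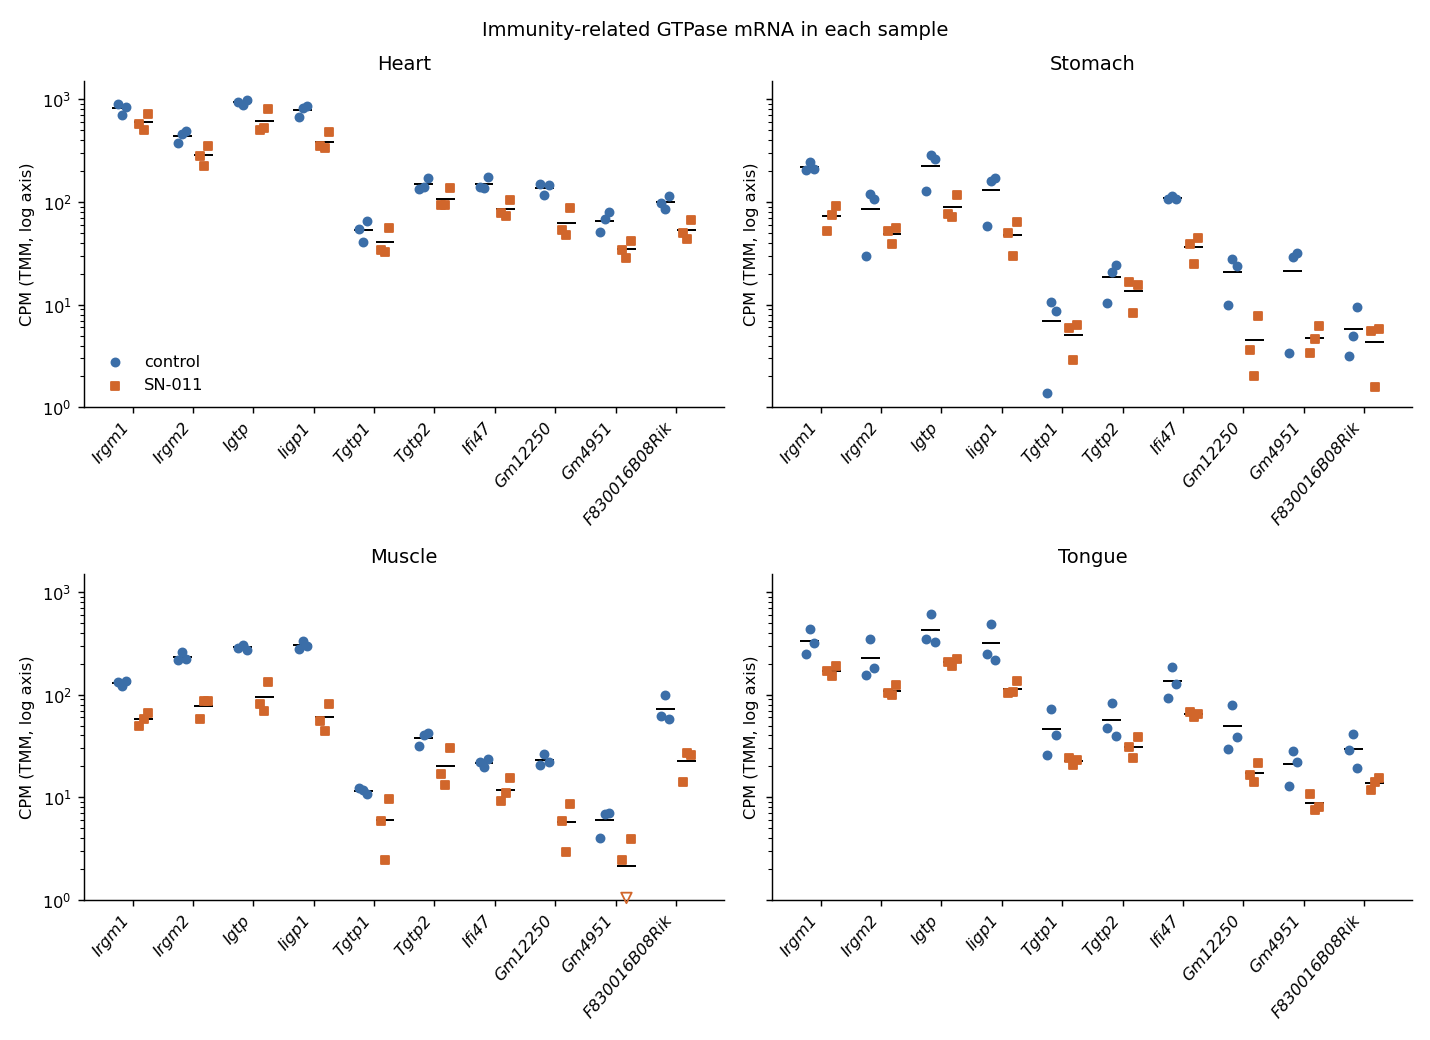
CPM with TMM scaling (log axis) of each IRG in the 3 control (circles) and 3 SN-011 samples (squares) of every tissue; bars are group means and the open triangle is a library with 0 counts. Groups do not overlap for all 10 genes in the muscle and tongue, for 7 in the heart and for 4 in the stomach, where 1 control sample is low for most members.

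In the heart, Iigp1 fell after SN-011. It had 676, 827 and 861 CPM in the controls and 347, 335 and 474 CPM in the SN-011 samples, and all treated samples were below all controls. The log2 fold change was −1.03 ± 0.18 (SE), 95% interval −1.43 to −0.63, with an adjusted p of 0.0403 in edgeR's quasi-likelihood test. This was 1 of 10 members, against 0.328% of all genes called lower in the heart. The call was lost without control 3 (adjusted p = 0.0896) and without SN-011 sample 1 (0.189), 2 (0.227) or 3 (0.0651), and in a joint fit of all tissues (0.528), while the fold change stayed between −1.22 and −0.94.

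Another 4 members were close to the threshold in the heart and did not pass it. Gm12250 had 149, 117 and 145 CPM in controls and 53.2, 47.2 and 86.6 CPM after SN-011, a log2 fold change of −1.14 ± 0.22 (adjusted p = 0.0543). Ifi47 had 141, 137 and 174 CPM against 78.0, 72.7 and 104 CPM (−0.83 ± 0.16, adjusted p = 0.0544). F830016B08Rik (−0.90, adjusted p = 0.0544) and Gm4951 (−0.93, adjusted p = 0.0588) had nearly the same values. In these genes too the highest treated sample, SN-011 sample 3, stayed below the lowest control.

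The other 5 members, the 3 regulators and the Tgtp pair, had fold changes nearer to 0 in the heart. Igtp had 942, 870 and 984 CPM in controls and 496, 523 and 805 CPM after SN-011 (−0.62 ± 0.20, adjusted p = 0.127). Irgm1 overlapped, with 898, 706 and 837 CPM against 576, 506 and 715 CPM (−0.44 ± 0.17, adjusted p = 0.173). Irgm2 had −0.64 (adjusted p = 0.112), and Tgtp1 and Tgtp2, effectors that coat the vacuole, had −0.40 (adjusted p = 0.349) and −0.48 (0.160). At an unadjusted p under 0.05, 9 of 10 members were lower (11.6% of all genes), and in 7 of 10 no SN-011 sample reached a control (13.1% of all genes). DESeq2 called 7 members (4.33% of all genes it tested were called lower) and edgeR's exact test 6 (2.79%). Leaving out control 2 raised the adjusted calls of the quasi-likelihood test to 4 members (2.46% of all genes) and leaving out control 1 to 2 (0.464%).

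In the stomach, Irgm1 and Ifi47 were the members with the least spread among controls. Irgm1 had 204, 242 and 211 CPM in the controls and 52.2, 75.1 and 90.2 CPM after SN-011 (−1.59 ± 0.29, 95% interval −2.25 to −0.94, adjusted p = 0.0635). Ifi47 had 106, 114 and 107 CPM against 39.3, 24.9 and 44.8 CPM (−1.59 ± 0.27, adjusted p = 0.0621). For both genes the treated samples lay far below the controls, at about 33.1% and 33.3% of the control mean, and neither passed the threshold. The lowest adjusted p of any gene in the stomach was 0.0618.

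Stomach control 1 stood apart for most of the other members. Irgm2 had 30 CPM there and 119 and 106 CPM in the other controls, against 51.7, 38.9 and 56.1 CPM after SN-011. Gm4951 had 3.39 CPM in control 1, 29.2 and 31.6 CPM in the other 2, and 3.42, 4.68 and 6.26 CPM after SN-011, so control 1 lay among the treated samples. Tgtp1 had 1.37 CPM (17 counts) in control 1 and 10.5 and 8.72 CPM in the others. It was close to the other controls for Irgm1 and Ifi47, and its summed level over the 10 genes was 553 CPM against 1014 and 958 CPM. Without it, Gm4951 passed the test (−2.69, adjusted p = 0.0436), the only member to do so, with 0.0668% of all genes called lower.

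The largest fitted values of the stomach belonged to Gm12250 (9.84, 28.1 and 23.9 CPM against 3.65, 2.04 and 7.80 CPM, −2.19 ± 0.57, adjusted p = 0.0885) and Gm4951 (−2.16 ± 0.71, adjusted p = 0.125). Igtp had −1.35 (adjusted p = 0.0973) and Iigp1 −1.46 (adjusted p = 0.114). Intervals of Irgm2, Tgtp1, Tgtp2 and F830016B08Rik included 0. F830016B08Rik was low for the family, with 3.15, 4.99 and 9.41 CPM in controls and 5.54, 1.58 and 5.77 CPM after SN-011. Its counts, 24 to 176, were above the floor of 3. By edgeR's quasi-likelihood test 0 of 10 passed (0% of all genes were called lower), 6 of 10 had an unadjusted p under 0.05 (11.4% of all genes), and DESeq2 and edgeR's exact test each called 6 (6.54% and 4.03% of all genes were called lower). In 4 of 10 the groups did not overlap (15.2% of all genes).

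In the muscle, Iigp1 had the largest fold change of the family. It had 277, 333 and 297 CPM in the controls and 55.3, 44.7 and 81.4 CPM in the SN-011 samples, a mean 5-fold lower. Its log2 fold change was −2.32 ± 0.24, 95% interval −2.90 to −1.74, and the adjusted p was 0.0750. Irgm2 had 215, 258 and 221 CPM against 58.0, 86.4 and 86.4 CPM (−1.59 ± 0.19, adjusted p = 0.0764). Irgm1, with 134, 120 and 137 CPM against 50, 58.5 and 66.2 CPM, had −1.17 ± 0.14 (adjusted p = 0.0764). Each of these treated groups lay well below its controls.

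Igtp in the muscle had 284, 307 and 272 CPM in controls and 81.4, 69.5 and 134 CPM after SN-011 (−1.60, adjusted p = 0.0948). F830016B08Rik had 62.1, 99.0 and 58.4 CPM against 14, 27.2 and 25.8 CPM (−1.71, adjusted p = 0.127) and Gm12250 20.6, 26.7 and 21.9 CPM against 5.90, 2.94 and 8.62 CPM (−1.98, adjusted p = 0.132). Ifi47, Tgtp1 and Tgtp2 had the smallest values, −0.88, −0.95 and −0.92. Gm4951 had 0 counts in SN-011 sample 2, which allows up to 3 counts, and its interval ran from −4.43 to 1.48.

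For all 10 genes of the muscle, each SN-011 sample was below each control, against 19.8% of all genes. By edgeR's quasi-likelihood test 0 of 10 passed after adjustment (0.00704% of all genes were called lower), 8 of 10 had an unadjusted p under 0.05 (5.8% of all genes), DESeq2 called 7 (4.33% of the 9509 genes to which it gave an adjusted p) and edgeR's exact test 6 (1.24%). SN-011 sample 2, the library with few detected genes, had the lowest treated value for Igtp, Iigp1, Tgtp1, Tgtp2, Gm12250 and Gm4951. Leaving it out brought 6 members past the threshold, and the share of all genes called lower rose to 3.8%, with Iigp1 at −2.15 (adjusted p = 0.0146), Irgm2 at −1.68 (0.0196), Gm12250 at −1.66 (0.0198), Irgm1 at −1.17 (0.0203), Igtp at −1.42 (0.0258) and F830016B08Rik at −1.88 (0.0340). The part of that library's low gene number in the main result was not tested.

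In the tongue, the 10 members had similar fold changes, from −1.50 for Gm12250 to −0.86 for Tgtp2. Iigp1 had 248, 485 and 219 CPM in the controls and 103, 105 and 135 CPM after SN-011 (−1.47 ± 0.31, adjusted p = 0.263). Igtp had 351, 603 and 323 CPM against 207, 189 and 221 CPM (−1.05 ± 0.25, adjusted p = 0.268). Irgm1 had 249, 431 and 316 CPM against 169, 153 and 189 CPM (−0.96 ± 0.21, adjusted p = 0.263). The treated samples lay close together, and control 2 was the highest sample for all 10 members.

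In all 10 members of the tongue no SN-011 sample reached a control, against 8.38% of all genes, although the gap was narrow for Tgtp1 (lowest control 26 CPM, highest treated 24.1 CPM) and for Tgtp2 (39.1 and 38.9 CPM). By edgeR's quasi-likelihood test 0 of 10 passed after adjustment, as did 0% of all genes, whereas all 10 had an unadjusted p under 0.05 (7.33% of all genes). DESeq2 called 8 (1.89% of all genes it tested) and edgeR's exact test 7 (1.09%). The count depended on control 1, the library with Xist counts: without it 9 of 10 passed, all but Tgtp2, and 8.04% of all genes were called lower. The lowest adjusted p-values of that quasi-likelihood fit belonged to Ifi47 (−1.28, adjusted p = 0.0048), Gm4951 (−1.52, 0.00545) and Irgm1 (−1.13, 0.00607). In the other tissues, leaving out control 1 gave 2 calls in the heart, 1 in the stomach and 0 in the muscle (0.0686% of all muscle genes).

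**Figure D3:**
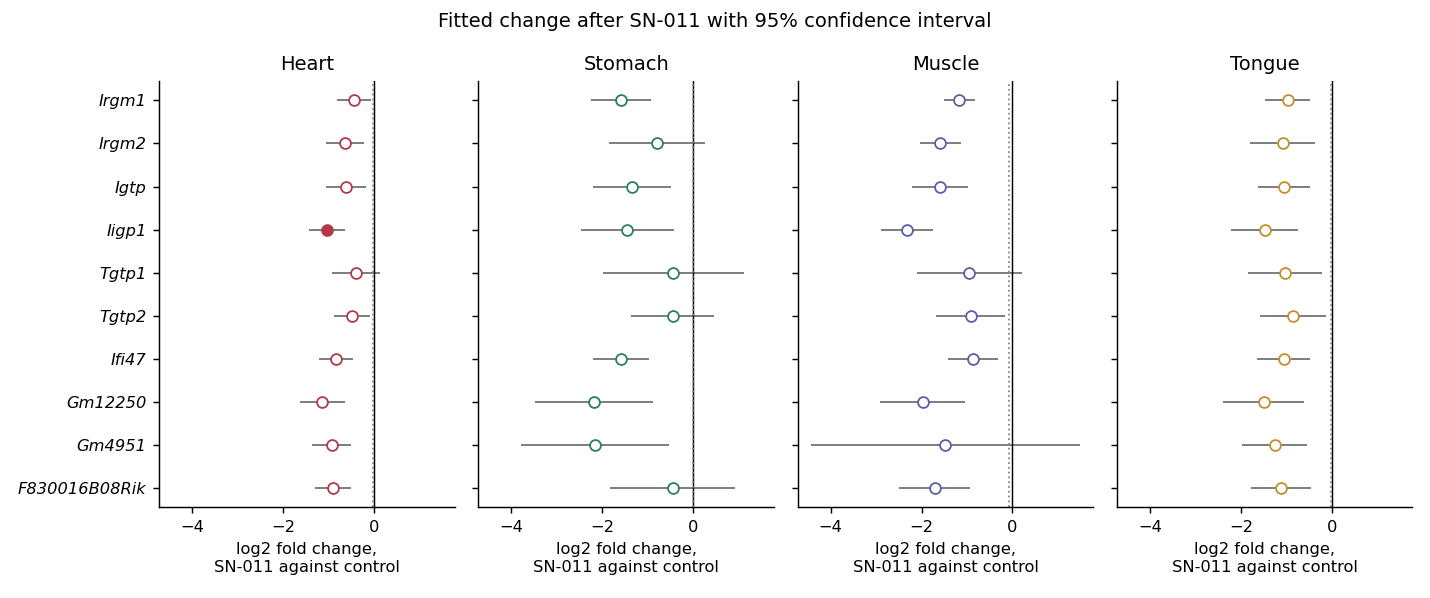
Log2 fold change after SN-011 for each IRG in the 4 tissues with its 95% confidence interval; the filled point passed an adjusted p under 0.05, open points did not, the solid line is 0 and the dotted line the median of all genes tested. All 40 points lie left of 0, from −2.32 (Iigp1, muscle) to −0.40 (Tgtp1, heart), and 7 intervals cross it.

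A single fit of all 24 libraries asked whether tissues responded differently. By edgeR's quasi-likelihood test 0 of 10 members passed (2.32% of all genes did), and Irgm1 alone had an unadjusted p under 0.05 (0.00897, adjusted p = 0.127). In the separate fits of each tissue, Irgm1 had −0.44 (heart), −1.59 (stomach), −1.17 (muscle) and −0.96 (tongue). The next lowest adjusted p was 0.372, for Iigp1, and the highest 0.907, for Tgtp1. A miss of the threshold does not show that the tissues responded alike. Leaving out control 1 of every tissue also gave 0 of 10 (3.31% of all genes). So did taking samples of the same treatment and number as 1 mouse, where 368 genes were called.

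Exact permutation of the 3 control and 3 SN-011 samples cannot give a two-sided p below 0.1, which was the value of every member and tissue whose groups did not overlap. The ratio of Tgtp2 to Tgtp1 counts, the near-identical pair, was 2.84 ± 0.515 in heart controls and 2.67 ± 0.215 after SN-011, and 3.30 ± 0.646 and 3.80 ± 1.39 in the muscle. It was lower in the tongue, at 1.31 ± 0.447 and 1.37 ± 0.276, and stomach control 1 stood apart at 7.59 against 1.98 and 2.80 in the other controls.

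Overlapping annotation touched the values of Igtp, Irgm2, Ifi47 and Tgtp1. Igtp and Irgm2 share 162 exonic bases on the same strand, 8.01% of the Igtp exons and 4.39% of those of Irgm2. Ifi47 shares 111 bases with Olfr56 and 106, on the opposite strand, with Gm12188, and Tgtp1 shares 223 with Gm12185. How counting treated such pairs and strand is not given in the sources used here. On GRCm38, Irgm1 (48861968 to 48871683), Tgtp1 (48985327 to 48994172), Tgtp2 (49057194 to 49064206) and Ifi47 (49076587 to 49096974) lie in 1 stretch of chromosome 11, and Gm12250 (58187739 to 58189012), Igtp (58199556 to 58207591) and Irgm2 (58199618 to 58222782) in another. Gm4951 (60212080 to 60247820), F830016B08Rik (60293380 to 60303016) and Iigp1 (60376027 to 60392634) lie together on chromosome 18.

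The family is switched on through interferon receptors, JAK kinases and transcription factors such as IRF1, so a list of 16 genes of that pathway was measured beside it. No gene of the list passed the adjusted test in any tissue. At an unadjusted p under 0.05, 7 of 15 tested were lower for heart, 4 of 14 for stomach, 2 of 14 for muscle and 6 of 15 for tongue, and 1 was higher in the stomach (Ifnar2) and 1 in the muscle (Irf2). Over all genes, 11.6% were lower at that p for heart, 11.4% for stomach, 5.8% for muscle and 7.33% for tongue. The shares of all genes that were higher were 10.8% for heart, 13.2% for stomach, 8.96% for muscle and 5.17% for tongue. The median log2 fold change was −0.39, −0.29, −0.22 and −0.37 in this order of tissues, smaller than that of the IRGs in each.

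Irf1, which drives IRG promoters, had 87.3, 122 and 189 CPM in heart controls and 74.4, 71.9 and 90.8 CPM after SN-011, and the groups overlapped. Its log2 fold change was −0.75 (heart), −0.03 (stomach), −0.82 (muscle) and −0.82 (tongue), and its adjusted p ran from 0.133 to 0.958.

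Ifng, the gene of the strongest IRG inducer, was rare. It had 41, 21 and 73 counts in heart controls and 3, 10 and 16 after SN-011 (−2.01 ± 0.58, adjusted p = 0.107). In the tongue it had 41, 111 and 71 counts against 48, 22 and 39 (−1.05, adjusted p = 0.420), with overlap. Both tissues hold so few counts that depth limits the comparison, and in the stomach and muscle Ifng had at most 12 counts and was not tested. Ifnb1 had at most 8 counts in any library.

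Of the 10 autophagy conjugation genes, which place IRGs on vacuoles, Gabarapl1 passed in the heart, where it rose from 97.9 ± 18.8 to 220 ± 34 CPM (log2 fold change 1.17 ± 0.17, adjusted p = 0.0281, with 0.52% of all genes called higher there). Its fold change was 0.90 for stomach (adjusted p = 0.0817), 2.04 for muscle (0.120) and 0.83 for tongue (0.263). The other 9 were not called in any tissue. At an unadjusted p under 0.05, 6 of the 10 were higher and 0 lower in the heart (median 0.28), and 4 were higher and 0 lower in the muscle (median 0.27). In stomach and tongue 1 was higher and 1 lower, with medians of −0.14 and 0.00. Over all genes, 10.8% (heart), 13.2% (stomach), 8.96% (muscle) and 5.17% (tongue) were higher at that p. The shares lower were 11.6%, 11.4%, 5.8% and 7.33%, so the stomach and tongue counts were near those of all genes. Irgq, a family relative not known as interferon-induced, had 0.01, −0.24, −0.15 and −0.40 (adjusted p of 0.565 to 0.965), and Irgc1 had too few counts to be tested.

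**Figure D4:**
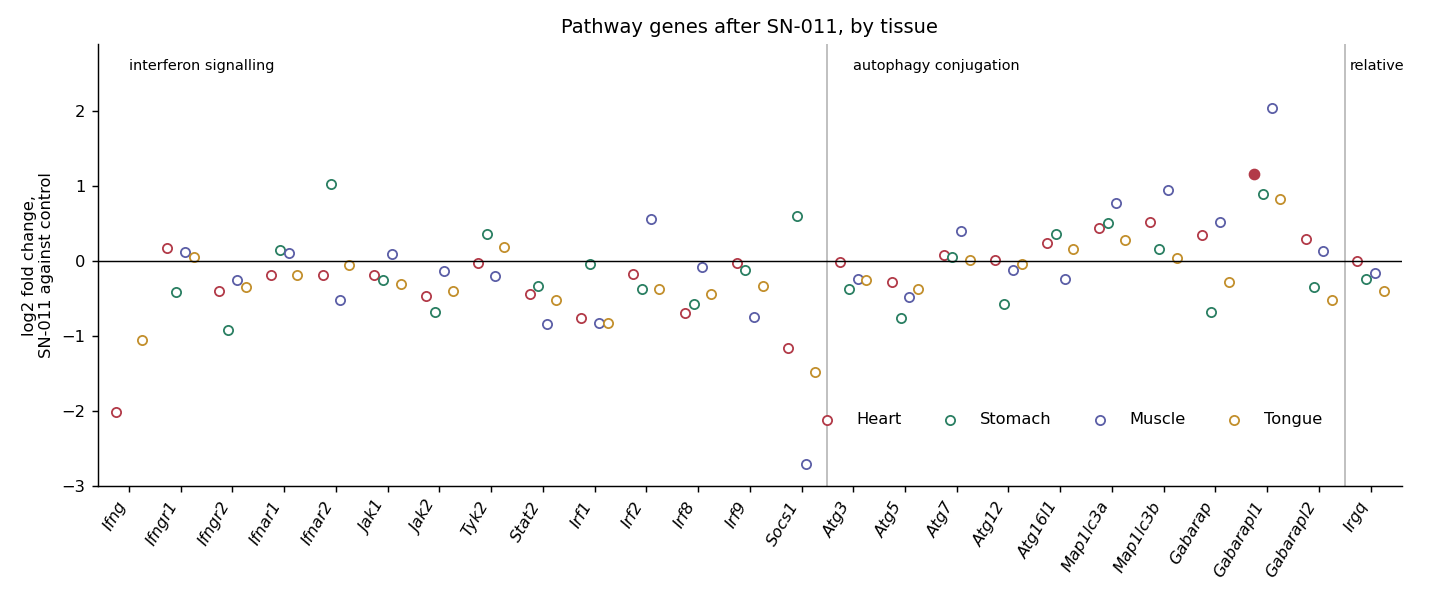
Log2 fold change after SN-011 of interferon signalling genes, autophagy conjugation genes and Irgq in each tissue; filled points passed an adjusted p under 0.05. Gabarapl1 in the heart (1.17) is the only filled point, and Irf1 lies below 0 in all 4 tissues, between −0.82 and −0.03.

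Markers of cells that could carry IRG mRNA were measured in the same samples, and no macrophage, T, NK, B, neutrophil or endothelial marker passed the adjusted test in any tissue. Macrophage markers had median fold changes of −0.03 (heart), 0.28 (stomach), 0.32 (muscle) and −0.02 (tongue), and in the muscle their summed level was 554 to 595 CPM in controls and 598 to 777 CPM after SN-011. The T cell list had −0.48, −0.43, −0.35 and −0.33. In each of heart, stomach and tongue, 1 of 7 was lower at an unadjusted p under 0.05, against 11.6%, 11.4% and 7.33% of all genes. Endothelial markers in the muscle had a median of −0.69, with 3 of 5 lower at an unadjusted p (5.8% of all genes). Their summed level there was 231 to 279 CPM in controls against 165 to 197 CPM after SN-011. Gastric markers, which do not belong to these tissues, were at 11.3 to 1088 CPM in heart controls against 3.02 to 33.9 CPM after SN-011, at 30.6 to 427 CPM against 0 to 16.2 CPM in the muscle, and at 44.0 to 1512 CPM against 8.12 to 19.4 CPM in the tongue. NK cell markers had medians of −0.54, −1.26, 0.31 and −0.17 in the same order, B cell markers −0.98, −0.25, −1.68 and −1.07, and neutrophil markers −0.27, 1.75, 0.33 and −5.10. The last of these is the value of S100a8, which was high in 1 library: it had 1.25, 1.55 and 163 CPM in tongue controls and 2.86, 1.75 and 0.187 CPM after SN-011. The part of these cells in the IRG values was not tested.

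To see which genes varied most like the family, the log2 CPM of all 10 members was averaged as deviations from each tissue's mean over the 24 samples. The members were close to that average themselves, with Pearson's r to the mean of the other 9 between 0.80 (Gm4951) and 0.98 (Igtp and Iigp1). The 5 most alike genes of 19721 were Gbp7 (r = 0.976), Parp14 (0.950), Rnf213 (0.947), Trim30a (0.942) and Parp9 (0.942). All of these points share libraries and treatment groups, so the coefficients describe the samples and carry no p. Gbp7, a guanylate-binding protein of the neighbouring GTPase family, had log2 fold changes of −0.76 (heart), −1.14 (stomach), −1.33 (muscle) and −0.90 (tongue), and its adjusted p ran from 0.0876 to 0.268. Within single tissues its r to the IRG average was 0.95 to 1.00 over 6 samples.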

How the data were processed

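RNA-Seq counts of 24 samples were used. Per the labels, poly(A) libraries were sequenced as pairs of 150 bases, and the submitters' processing notes name HISAT2, HTSeq and the build mm10, whereas the study's methods name hisat2 with featureCounts. The authors deposited raw counts of read pairs per gene, without normalization. Tool versions, the annotation release and the strand setting are not given in the sources used here. Identifiers were matched to GENCODE M21 (54495 of 54532 genes).

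Samples were grouped by tissue and treatment from their titles. Within a tissue, genes were filtered by filterByExpr at a count of 10 and a total of 15, scaled by TMM and tested by the quasi-likelihood test of edgeR 4.0.16 under R 4.3.3. P-values were adjusted by Benjamini-Hochberg across every tested gene, at a threshold of 0.05. The genes tested were 16151 (heart), 17031 (stomach), 14198 (muscle) and 16587 (tongue). Joint fits over 24 samples (differences between tissues) and over 12 control samples (levels) were made in the same way, and exact permutation used 20 relabellings. TPM used exon-union lengths. Fits were tested on simulated counts. Total counts were 14253416 to 18443329, and 3 counts were taken as the smallest level that can be shown.

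The named genes were all 10 members, the lists of interferon signalling, autophagy conjugation, relatives and cell markers, and the 5 most alike genes. Examples were Irf1, Ifng and, for autophagy conjugation, the lowest adjusted p of the list. The lowest adjusted p of the signalling list in each tissue was not always given. The values of 1 listed signalling gene are not reported here. S100a8 was named after its values were seen. Members and lists were chosen with earlier results of these data known. Alternatives were DESeq2's size factors, no filter, DESeq2 1.42.0, edgeR's exact test, a joint fit, a replicate block and each sample left out. Scaling by total counts, leaving out control 1 of every tissue and TPM over 1 annotated transcript were added after seeing the data. Promoter sequences are from RefSeq (GRCm38.p6).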

Additional observations from a re-analysis of the deposited data

How the results depend on the processing

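Of 520 fold changes of members recomputed under the alternatives, 2 turned above 0, both far from the threshold: Tgtp1 in the stomach without control 2 (0.0041) and F830016B08Rik in the stomach without control 3 (0.06), with leave-one-out ranges of −0.95 to 0.0041 and −0.77 to 0.06. The number of members called depended on the method. For heart, stomach, muscle and tongue, members called lower were 1, 0, 0 and 0, and with total counts only 5, 0, 0 and 0. Without the filter on low counts they were 8, 6, 5 and 0, with DESeq2's Wald test 7, 6, 7 and 8, with edgeR's exact test 6, 6, 6 and 7, and with a joint fit of 24 samples 0, 6, 7 and 0. Leaving out 1 sample at a time gave 0 to 4, 0 to 1, 0 to 6 and 0 to 9. Same-numbered control and SN-011 samples correlated at −0.453 to 0.304. These are correlations of deviations from means of 3 samples, so they cannot tell whether such samples share more than a number. With the replicate block, 5 members were called in the heart and 0 in each other tissue.

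Over all genes, calls in the same order were 137, 0, 2 and 0. They were 249, 0, 1 and 0 with total counts only, 137, 0, 1 and 0 with DESeq2's size factors, 1888, 1368, 110 and 18 without the filter, 1361, 2389, 880 and 418 with DESeq2's Wald test, 912, 1807, 442 and 246 with edgeR's exact test, 1, 2738, 474 and 4 with the joint fit, and 242, 181, 0 and 0 with the replicate block. Leaving out 1 sample gave 1 to 787, 0 to 64, 0 to 1103 and 0 to 2135. Genes whose response differed between tissues were 458, 691 with total counts only and 94 to 1051 with 1 sample left out, and 0 of 10 members were among them in all 29 settings, the lowest adjusted p being 0.0939. The cause of these differences in calls was not tested.

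Of 960 differences of members between control tissues, 13 changed sign. Gm4951 between stomach and tongue was 0.01 with DESeq2's size factors, 0.11 with total counts only, 0.03 without the filter and 0.06 to 0.45 with heart control 2, tongue control 2 (0.22) or stomach control 1 left out. With total counts only, F830016B08Rik between heart and muscle was 0.41, Irgm1 between stomach and muscle 0.55, and Igtp and Tgtp2 between muscle and tongue −0.41 and −0.42. Gm12250 between muscle and tongue was 0.44 without tongue control 2 (range −0.36 to 0.44), and Irgm2 between heart and muscle −0.04 without muscle control 1 and −0.07 without heart control 3 (range −0.07 to 0.14). Gm4951 ranged from −0.41 to 0.45. None of these was called in either form.

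Total counts alone moved the median gene after SN-011 to −0.16 (heart), 0.18 (stomach) and −0.31 (muscle). Under that scaling, the members whose groups did not overlap were 9 (heart, 22.4% of all genes), 2 (stomach, 10.2%), 10 (muscle, 33.4%) and 9 (tongue, 5.81%). TPM over 1 annotated transcript kept Igtp first in each tissue, but gaps between members depended on the length used. Igtp and Irgm1 then had 788 and 617 TPM in heart controls, and 166 and 137 TPM in stomach controls. Other ranks moved too, such as Irgm2 from 2 to 5 in tongue controls. Levels per coding length were not run, since no protein table was used here.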
